A study of Mus musculus with 7 samples.

Results

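The miRNAs described here are those cut from 6 hairpins that lie antisense to Rtl1 in the imprinted Dlk1-Dio3 region: miR-337, miR-431, miR-433, miR-127, miR-434 and miR-136. They were picked by miRNA number from the assay names, and 8 of the 375 miRNA assays matched. Both arms of miR-337 and of miR-434 have an assay of their own, and the assays named miR-127, miR-136, miR-431 and miR-433 carry no arm in their name. All 8 gave a threshold cycle (Ct, the PCR cycle at which the signal crosses a set line) in all 24 rows measured, as did 221 miRNA assays in all.

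The cells were primary myogenic progenitor cells, the dividing muscle precursors that fuse into myotubes, from hind limb muscle of C57BL/6J mice, used at passage 3. The labels name no engineered allele and give neither the age nor the number of mice, and muscle progenitors prepared as a primary culture can hold other cells of the muscle. In growth medium (Ham's F-10 with 20% fetal bovine serum and 10 ng/ml FGF-2, on collagen I) cells were taken on day 2 and day 5. For differentiation, cells attached for 24 h in growth medium on a matrix of entactin, collagen IV and laminin, which is day 0, and were then held in DMEM with 2% horse serum until day 1, day 2 or day 5. Matrix, serum, base medium and FGF-2 thus differ together between the media. Each of the 6 days has 4 rows of TaqMan real-time PCR wells, and the labels do not say whether these are 4 cultures or 4 wells of 1 RNA, so every p-value here measures only the spread between rows, which may be technical.

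The Dlk1-Dio3 region is imprinted: the paternal chromosome makes the proteins Dlk1, Rtl1 and Dio3, and the maternal chromosome makes long non-coding RNAs and many miRNAs. The miRNAs antisense to Rtl1 come from the maternal strand, pair perfectly with the Rtl1 mRNA and cleave it. Rtl1, a protein derived from a retrotransposon, acts in placenta and in muscle, and the region as a whole is known for its activity in muscle stem cells. In mouse muscle cells, miR-431 is known to target Pax7, the transcription factor of muscle stem cells, and miR-127 to promote differentiation.

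The sequences below are those of the miRNAs the assays are named for, with bases 2 to 8 (the seed, the part that chooses targets) in capitals. They are the RefSeq mature sequences on GRCm38.p6, in the order of the hairpins along chromosome 12, and all 6 hairpins were matched by name. Both arms are printed where the assay name gives none.
miR-337-5p: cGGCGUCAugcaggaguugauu
miR-337-3p: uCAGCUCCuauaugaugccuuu
miR-431-5p: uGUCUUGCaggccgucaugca
miR-431-3p: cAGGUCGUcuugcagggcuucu
miR-433-5p: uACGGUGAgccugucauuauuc
miR-433-3p: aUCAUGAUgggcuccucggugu
miR-127-5p: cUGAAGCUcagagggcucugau
miR-127-3p: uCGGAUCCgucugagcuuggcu
miR-434-5p: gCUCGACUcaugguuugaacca
miR-434-3p: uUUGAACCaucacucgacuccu
miR-136-5p: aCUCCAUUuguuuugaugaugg
miR-136-3p: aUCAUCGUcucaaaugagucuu

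The 12 arms have 12 different seeds, and none of these seeds occurs in another of the 1738 mature mouse miRNAs in the table. The genes therefore form a family by place, not by sequence. The longest run of bases shared by any of the 66 pairs of arms is GUCUUGCAGG, 10 bases found in both arms of miR-431. The next are 9 bases long: CGUCAUGCA in miR-337-5p and miR-431-5p, and UUUGAACCA in both arms of miR-434.

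All 6 hairpins lie on the plus strand of chromosome 12, and Rtl1 is read from the other strand. In order they are Mir337 (chr12:109585789-109585885), Mir431 (chr12:109590447-109590537), Mir433 (chr12:109591715-109591838), Mir127 (chr12:109592846-109592915), Mir434 (chr12:109594506-109594599) and Mir136 (chr12:109595327-109595388). The last starts 9.54 kb after the first, and Mir431 is 4.66 kb from Mir337. The long non-coding RNA annotated as 6430411K18Rik runs through the same stretch, with Meg3 upstream and Rian downstream. The hairpins of miR-337 and miR-434, the 2 whose arms were measured separately, are shown with both arms in capitals.
Mir337: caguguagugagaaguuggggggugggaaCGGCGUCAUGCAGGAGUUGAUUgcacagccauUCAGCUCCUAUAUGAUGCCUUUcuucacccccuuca
Mir434: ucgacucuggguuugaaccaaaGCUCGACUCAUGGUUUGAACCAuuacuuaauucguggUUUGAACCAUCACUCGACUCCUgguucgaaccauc

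A level is given below as the number of cycles after MammU6, the small nuclear RNA that the files mark as endogenous control, in the same row: fewer cycles mean more miRNA, and 1 cycle is 1 unit of log2. Because a single control sets that scale, each comparison is also given against the row median, the median Ct of the 221 miRNA assays with a Ct in every row. The 2 scales are apart: against MammU6 the row median was higher by 0.95 log2 units on day 2 of differentiation than on day 0, by 1.24 on day 5, and by 0.75 on day 5 than on day 2 in growth medium. The mean of the other 4 control RNAs was higher by 0.41, 0.43 and 0.59 over the same pairs. MammU6 came late in row 1 on every day of differentiation (13.25 to 13.85 cycles, against 12.30 to 13.05 in rows 2 to 4) and in row 2 on both days in growth medium (13.61 and 13.64). On day 0, row 1 had the highest level of all 8 assays on the MammU6 scale. The muscle miRNAs fixed as markers (miR-1, miR-133a, miR-133b, miR-208b, miR-486 and miR-499) had a Ct in all 24 rows, and their summed log2 level against MammU6 went from between -2.42 and -1.47 on day 0 to between 1.39 and 2.08 on day 5 of differentiation. In growth medium it lay between -2.69 and -2.01 on day 2 and between -2.05 and -0.53 on day 5. In bulk RNA, fewer cells of a type and less RNA per cell cannot be told apart.

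The mean level of miR-431 was highest on day 2 of differentiation and lower again on day 5, as were those of miR-433, miR-127 and miR-434-5p. On day 0 the 4 rows came up 11.34, 12.04, 12.01 and 11.36 cycles after MammU6 (mean 11.69 ± 0.39, SD, n = 4). On day 1 they stood at 10.85, 11.08, 10.64 and 10.12, on day 2 at 10.16, 9.76, 9.54 and 9.24, and on day 5 at 10.51, 10.84, 11.02 and 10.5. On this scale every row of day 2 lay above every row of day 0 and of day 5. The rows of day 2 and day 1 overlapped by a few hundredths of a cycle. Against the row median, row 1 of day 2 (0.35) lay within day 0 (0.03 to 0.95) and day 5 (-0.05 to 0.78).
In growth medium the rows of miR-431 ranged from 10.82 to 12.63 on day 2 and from 10.98 to 12.35 on day 5, so that both days overlapped day 0. Against day 0, the change of 1.02 ± 0.30 (SE) log2 units on day 1 did not pass the test (limma, adjusted p = 0.121). miR-431 was higher by 2.01 ± 0.30 on day 2 (adjusted p = 9.64e-05). On day 5 it was higher by 0.97 ± 0.30 (adjusted p = 0.0141). Against the row median the day 5 change was -0.27 ± 0.39 (adjusted p = 0.583). From day 2 to day 5 miR-431 fell by 1.04 log2 units against MammU6 (adjusted p = 0.0282). Of the 8 assays it was the only one called lower there, where 4.86% of 247 assays were called lower. With the row median as reference the same fall was -1.33 ± 0.39 (adjusted p = 0.0157), and with the mean of the other 4 controls the change of -1.07 did not pass (adjusted p = 0.108). With the day mean of MammU6 in place of the row's own value, an alternative chosen after seeing the data, the fall was not called.

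miR-136 had its highest mean on day 5, but its difference from day 2 passed the test on neither scale. Its rows stood at 13.41, 15.08, 15.19 and 14.10 cycles after MammU6 on day 0, at 12.38, 12.89, 12.50 and 12.21 on day 2, and at 11.63, 12.31, 12.66 and 11.58 on day 5 of differentiation. On this scale no row of day 0 reached any row of day 2 or day 5. miR-136 rose by 1.95 ± 0.44 log2 units to day 2 (limma, adjusted p = 0.00298) and by 2.40 ± 0.44 to day 5 (adjusted p = 0.000382), which are 3.86-fold and 5.28-fold. On the row median scale these rises were 1.00 ± 0.30 (adjusted p = 0.0158) and 1.16 ± 0.30 (adjusted p = 0.00482). The change of miR-136 from day 2 to day 5 was 0.45 ± 0.44 against MammU6 (adjusted p = 0.567), with overlapping rows, and 0.16 ± 0.30 against the row median (adjusted p = 0.715).
In growth medium its rows stood at 13.71, 13.06, 13.77 and 14.70 on day 2 and at 12.06, 11.95, 12.36 and 13.34 on day 5. Row 4 of day 5 overlapped the rows of day 2, and the difference of 1.38 ± 0.47 log2 units did not pass the test (adjusted p = 0.0945).

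**Figure D1:**
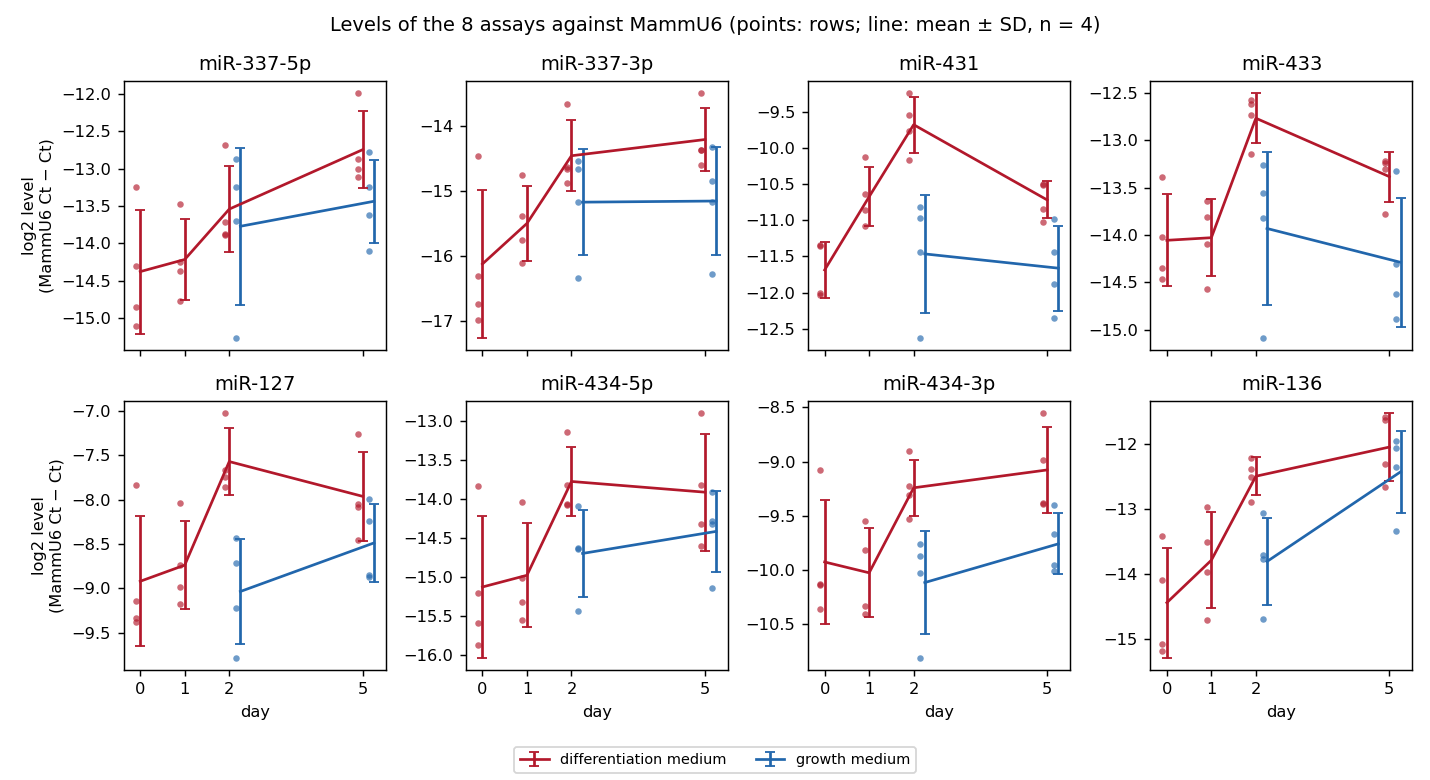
Levels of the 8 assays against MammU6 (vertical axis, MammU6 Ct minus assay Ct, log2, a separate scale in each panel) by day (horizontal axis), red for differentiation medium and blue for growth medium, which is drawn slightly to the right. Points are the 4 rows, lines join the means, and bars are 1 SD. The means of miR-127, miR-431, miR-433 and miR-434-5p peak on day 2 of differentiation. Those of miR-136, miR-434-3p and both arms of miR-337 are highest on day 5, where their rows overlap those of day 2.

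The courses of the other assays follow. miR-433 came up 14.06 ± 0.48 cycles after MammU6 on day 0, 14.03 ± 0.41 on day 1, 12.77 ± 0.26 on day 2 and 13.39 ± 0.27 on day 5 (mean ± SD, n = 4 rows). Its means on day 0 and day 1 were close, and its mean was highest on day 2. On this scale its day 2 rows (12.57 to 13.15) lay above every row of day 0, day 1 and day 5. Against the row median they overlapped the rows of each of these days. From day 2 to day 5 its change on the MammU6 scale did not pass (-0.62 ± 0.30, limma, adjusted p = 0.195), and against the row median it fell (-0.91 ± 0.31, adjusted p = 0.0340).

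miR-127 was at 8.92 ± 0.73 cycles on day 0, 8.74 ± 0.50 on day 1, 7.57 ± 0.38 on day 2 and 7.96 ± 0.50 on day 5 (mean ± SD, n = 4 rows). Row 1 of day 0, at 7.83 cycles, lay apart from the other 3 rows, at 9.14 to 9.38. Against the row median, where row 1 did not stand out, miR-127 fell from 3.78 log2 units above the median on day 2 to 3.10 on day 5 (-0.68 ± 0.16, limma, adjusted p = 0.00534). The rows of the 2 days did not overlap there (3.49 to 4.02 and 2.91 to 3.23).

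On the MammU6 scale both arms of miR-337 had their highest mean on day 5. The 3p arm stood at 16.12 ± 1.14 cycles on day 0, 14.45 ± 0.55 on day 2 and 14.20 ± 0.49 on day 5, and the 5p arm at 14.38 ± 0.83, 13.54 ± 0.58 and 12.75 ± 0.51 (mean ± SD, n = 4 rows). From day 2 to day 5 neither the 3p arm (0.25 ± 0.49, limma, adjusted p = 0.837) nor the 5p arm (0.80 ± 0.44, adjusted p = 0.264) passed on this scale. The 2 arms of miR-434, at 15.13 ± 0.90 (5p) and 9.93 ± 0.57 (3p) on day 0, were at 13.78 ± 0.44 and 9.24 ± 0.26 on day 2 and at 13.92 ± 0.75 and 9.08 ± 0.40 on day 5. Their rows on day 2 and day 5 overlapped. Cycles of different assays also carry the efficiency of each assay, so no order of abundance is read between them.

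**Figure D2:**
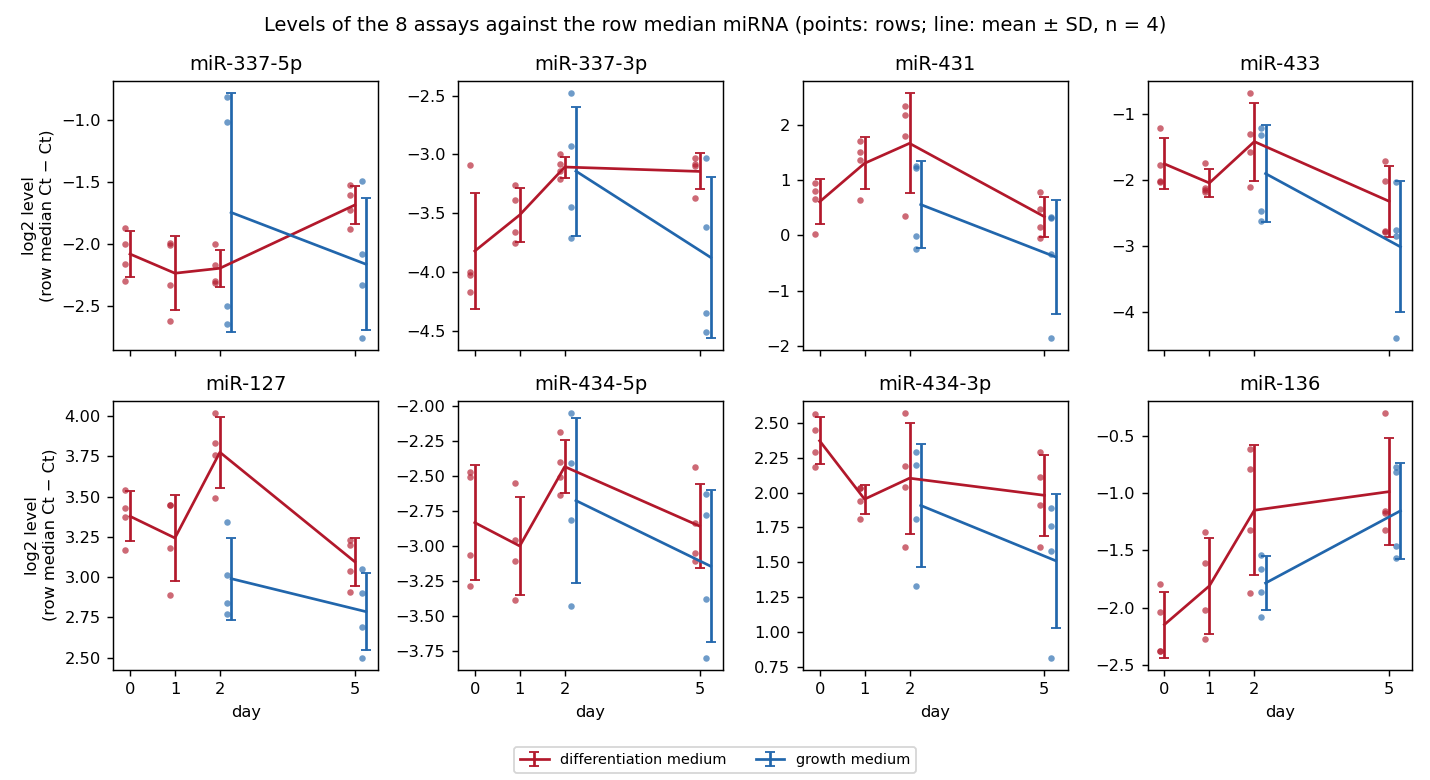
The same 8 assays on the second scale (vertical axis, row median Ct minus assay Ct, log2) by day (horizontal axis), red for differentiation and blue for growth medium, with rows as points and mean ± SD (n = 4) as lines and bars. In differentiation medium the means of miR-127, miR-431, miR-433 and miR-434-5p peak on day 2 and are below their day 0 mean on day 5. The means of miR-136 and miR-337-5p are highest on day 5. Row 2 of growth day 5 is low for several assays, reaching -4.40 for miR-433.

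On day 1 of differentiation none of the 8 assays was called against day 0, where 2.10% of 238 assays were called in either direction. At an unadjusted p under 0.05 the count was 1 of 8, miR-431, beside 23 of 238 assays. Relative to the row median 0 of 8 were called where 17.6% of all assays were. There 0 of 8 had an unadjusted p under 0.05, beside 70 of 238 assays.

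On day 2 of differentiation, 6 of 8 were called higher than on day 0, beside 28.4% of the 243 assays tested. The median change of the 8 was 1.35 log2 units and that of all assays 0.66, and all 8 lay above the latter. Beside miR-431 and miR-136, these were miR-337-3p (1.67 ± 0.49), miR-434-5p (1.35 ± 0.48), miR-127 (1.35 ± 0.39) and miR-433 (1.29 ± 0.30), with limma adjusted p from 0.00358 to 0.0390. miR-337-5p (0.84 ± 0.44, adjusted p = 0.143) and miR-434-3p (0.69 ± 0.33, adjusted p = 0.116) did not pass.
By the row median 3 of 8 were called higher, miR-136, miR-431 (1.06 ± 0.39) and miR-337-3p (0.72 ± 0.21), beside 11.9% of all assays. The count on the MammU6 scale was 8 without row 1 of day 0, and 3 without row 3 of day 0.

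On day 5 of differentiation, 7 of 8 were called higher than on day 0, beside 42.3% of the 246 assays tested. The median of the 8 was 1.09 and that of all assays 0.89. After miR-136 came miR-337-3p (1.92 ± 0.49, limma, adjusted p = 0.00487), miR-337-5p (1.64 ± 0.44, adjusted p = 0.00598) and miR-434-5p (1.22 ± 0.48, adjusted p = 0.0440). miR-127 (0.96 ± 0.39) passed with an adjusted p of 0.0499, and miR-433 (0.67 ± 0.30) missed with 0.0731.
With the row median as reference only miR-136 and miR-337-3p (0.68 ± 0.21) were called higher, 2 of 8 beside 17.1% of all assays. On that scale 5 of 8 lay below 0, miR-433 lowest at -0.57 ± 0.31, and none of these 5 was called. The count on the MammU6 scale was 8 without row 1 of day 0. It was 4 when day 5 lost its row 1, or day 0 any other row.

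**Figure D3:**
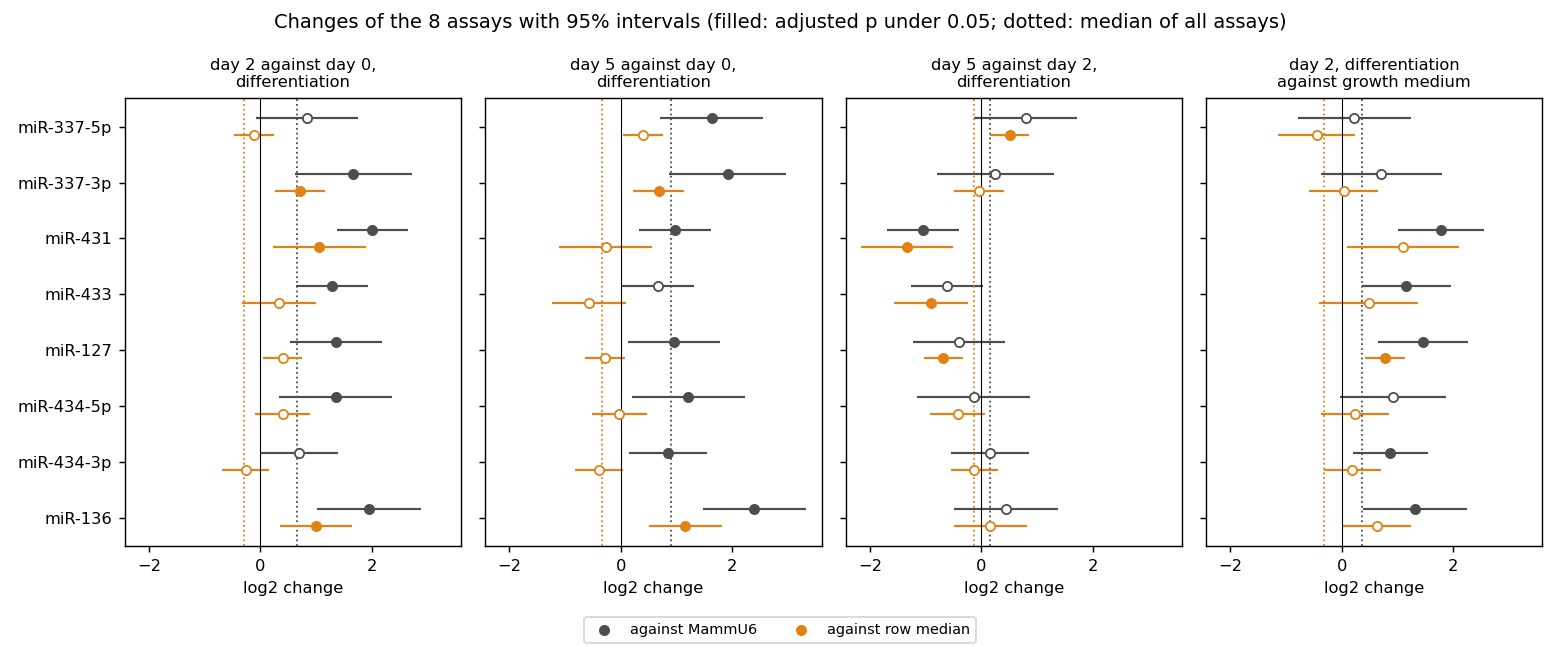
Log2 changes (horizontal axis) of the 8 assays (vertical axis, in the order of the hairpins) in 4 comparisons, grey against MammU6 and orange against the row median, with 95% intervals. Filled points had an adjusted p under 0.05, and dotted lines mark the median change of all assays tested on the same scale. All 8 lie above the dotted line on day 2 against day 0, and miR-431 lies left of 0 on both scales on day 5 against day 2.

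Between day 1 and day 2, miR-433 (1.26 ± 0.30, limma, adjusted p = 0.0117) and miR-431 (1.00 ± 0.30, adjusted p = 0.0420) were called higher, 2 of 8 beside 11.6% of all assays. All 8 changes were positive, between 0.68 and 1.3, where the median of all assays was 0.60. On the row median scale miR-127 alone was called (0.53 ± 0.16, adjusted p = 0.0376), 1 of 8 beside 7.05%. The count on the MammU6 scale was 1 when row 2, 3 or 4 of day 2 or either of rows 2 and 3 of day 1 was left out, and 6 with the day mean of MammU6. With row position as a block all 8 were called. The share of all assays called is not given for these other settings, so their counts describe the 8 assays alone. With the mean of the other 4 controls neither miR-433 (0.88, adjusted p = 0.16) nor miR-431 (0.61, adjusted p = 0.426) passed, and the 2 called were miR-127 (0.78) and miR-434-5p (0.82).

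Between day 1 and day 5, 4 of 8 were called higher beside 32.9% of all assays: miR-136 (1.75 ± 0.44), miR-337-5p (1.47 ± 0.44), miR-337-3p (1.29 ± 0.49) and miR-434-3p (0.95 ± 0.33). miR-431 was at -0.05 ± 0.30 in this comparison. Relative to the row median miR-136 (0.82 ± 0.30) and miR-337-5p (0.55 ± 0.17) were called, 2 of 8 beside 19.8%. Leaving out day 5 row 1 or day 1 row 2 gave a count of 1 on the MammU6 scale, and leaving out day 5 row 4 or day 1 row 3 gave 2.

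Between day 2 and day 5 the 8 assays went both ways. On the MammU6 scale the changes ran from -1.04 for miR-431 to 0.80 ± 0.44 for miR-337-5p, and 4 of 8 were positive. By the row median miR-431, miR-433 and miR-127 fell, 3 of 8 beside 19.8% of all assays called lower, and miR-337-5p rose (0.51 ± 0.17, limma, adjusted p = 0.0268), 1 of 8 beside 15.4% called higher. The fall of miR-431 on the MammU6 scale was not called when any one of rows 2 and 3 of day 5 or rows 2, 3 and 4 of day 2 was left out.

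Differences between assays within a row need no control RNA, and they show the same spread among the 8. They are given as a description, with no test. The share over pairs of all assays was not computed. The counts of pairs here and below thus do not show more spread than among other assays. From day 2 to day 5 of differentiation the rows of the 2 days did not overlap for 12 of the 28 pairs of assays, from day 0 to day 5 for 10, from day 0 to day 2 for 4, and in growth medium for 6.
The log2 ratio of miR-431 to miR-136 was 2.07, 3.04, 3.18 and 2.74 in the rows of day 0, 2.22, 3.13, 2.96 and 2.97 on day 2, and 1.12, 1.47, 1.64 and 1.08 on day 5. It thus stood at about the same value on day 0 and day 2, and every row of day 5 was lower. In growth medium this ratio was 2.35 ± 0.61 on day 2 and 0.77 ± 0.97 on day 5 (mean ± SD, n = 4 rows), with overlapping rows.

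The ratio of miR-431 to miR-337-5p was 2.69 ± 0.54 on day 0, 3.87 ± 0.91 on day 2 and 2.03 ± 0.42 on day 5. On day 2 its rows were 2.52, 4.13, 4.34 and 4.48, all above the 1.48, 2.03, 2.09 and 2.51 of day 5. Row 1 on day 2 and row 4 on day 5 came within 0.01 of each other. The ratio of miR-431 to miR-433, which are neighbours, was 2.37 ± 0.45, 3.09 ± 0.47 and 2.67 ± 0.32 on the same days, with overlapping rows.

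For miR-136, the count of pairs whose rows did not overlap depended on the days. From day 0 to day 5 of differentiation it was 5 of 7, and from day 2 to day 5 it was 3 of 7 in differentiation and 5 of 7 in growth medium. Such pairs are not particular to miR-136. From day 2 to day 5 of differentiation miR-337-5p also had rows that did not overlap when paired with miR-127, miR-337-3p, miR-431, miR-433 and miR-434-5p. The log2 ratio of miR-136 to miR-433 was -0.39 ± 0.63 on day 0 and 1.34 ± 0.53 on day 5 of differentiation, and 0.12 ± 0.55 on day 2 and 1.86 ± 0.78 on day 5 in growth medium. The ratio of miR-136 to miR-127 was -5.53 ± 0.39 and -4.08 ± 0.38 on the first pair of days, and -4.78 ± 0.22 and -3.94 ± 0.40 in growth medium.

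Along the locus, the hairpins at the ends had the largest changes on day 5. On the MammU6 scale miR-136, the last hairpin, changed by 2.40 and the arms of miR-337, the first, by 1.92 and 1.64, while the 5 assays of the hairpins between them changed by 0.67 to 1.22. With the row median as reference the 3 outer assays were positive (0.40 to 1.16) and the 5 inner ones between -0.57 and -0.03. On day 2 this order was not seen: miR-431, an inner hairpin, had the largest change (2.01) and miR-337-5p one of the smallest (0.84). This is a description of 6 hairpins, with no test.

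**Figure D4:**
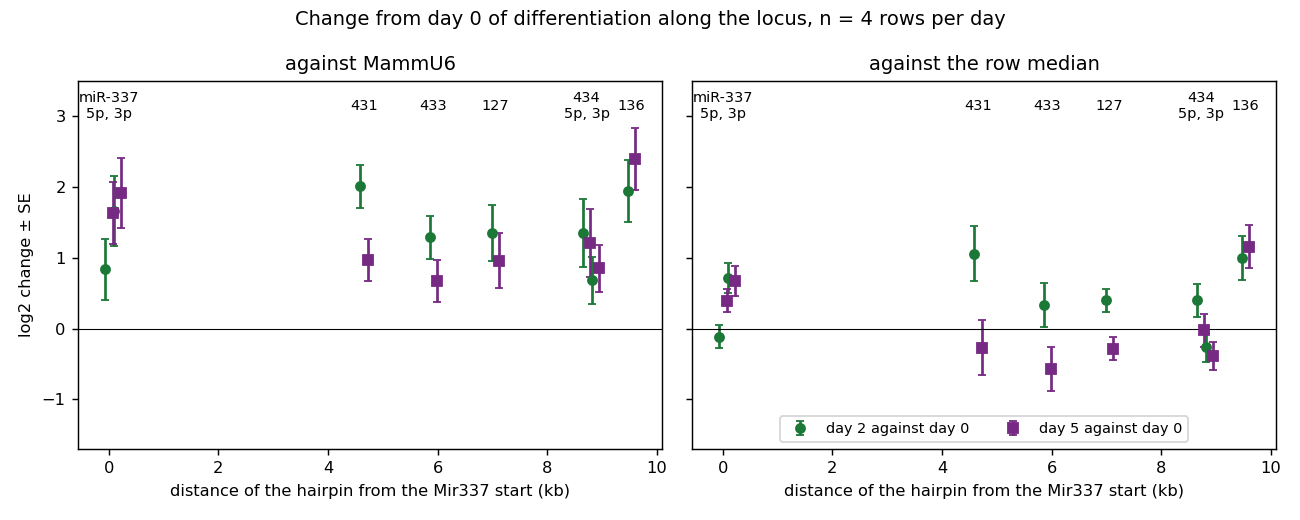
Log2 change from day 0 of differentiation (vertical axis, mean ± SE, n = 4 rows per day) against the distance of the hairpin from the start of Mir337 in kb (horizontal axis), green circles for day 2 and purple squares for day 5, against MammU6 on the left and the row median on the right. Arms and days are drawn side by side. On day 5 the highest squares are those of miR-136 and of both arms of miR-337, at the ends.

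The 2 arms of 1 hairpin come from the same precursor, so their difference within a row compares products of 1 molecule. For miR-337 the Ct of the 5p assay minus that of the 3p assay was -1.22, -1.87, -1.87 and -2.0 cycles in the rows of day 0, and -0.97, -0.76, -1.0 and -0.91 on day 2. The 3p arm thus came closer to the 5p arm by 0.83 ± 0.18 cycles (SE), and the rows did not overlap (exact permutation test, two-sided, p = 0.0286, the smallest that 4 against 4 rows allow). Over the 6 tests of arms made, the adjusted p was 0.171. On day 5 the difference was -1.46 ± 0.07 cycles (SD, n = 4), and its change from day 0 was 0.28 ± 0.18 (exact p = 0.143).

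For miR-434 the 5p assay came up later than the 3p assay by 4.76, 5.07, 5.52 and 5.47 cycles on day 0 and by 4.25, 4.55, 4.76 and 4.59 on day 2. Row 1 of day 0 equalled row 3 of day 2, and the change of -0.67 ± 0.21 cycles had an exact p of 0.0571 (adjusted 0.171). On day 5 the rows split, with 4.35 and 4.45 in rows 1 and 2 and 5.22 and 5.34 in rows 3 and 4, and the change from day 0 was -0.37 ± 0.31 (exact p = 0.257). In growth medium the change from day 2 to day 5 was -0.32 ± 0.28 cycles for miR-337 (exact p = 0.286) and 0.08 ± 0.19 for miR-434 (exact p = 0.743).

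**Figure D5:**
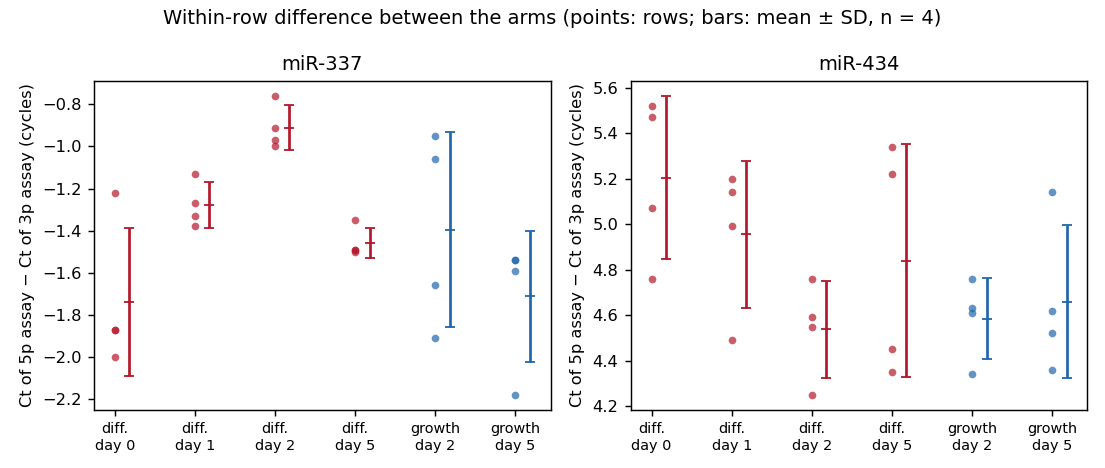
Ct of the 5p assay minus Ct of the 3p assay in the same row (vertical axis, cycles) on the 4 days of differentiation (red) and the 2 days in growth medium (blue), with rows as points and the mean ± SD (n = 4) beside them. For miR-337 the 4 rows of day 2 lie above those of day 0, and for miR-434 the rows of day 0 and day 2 meet at 4.76 cycles.

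In growth medium 0 of 8 assays were called between day 2 and day 5, beside 7.44% of 242 assays in either direction. At an unadjusted p under 0.05 there was 1, miR-136, beside 74 of 242 assays. The changes ran from -0.36 ± 0.51 for miR-433 to 1.38 for miR-136, with a median of 0.31 beside 0.75 for all assays, and 1 of 8 lay above that median. On the row median scale 0 of 8 were called beside 5.79% (1 at an unadjusted p under 0.05, beside 59 of 242 assays). There 7 of 8 changes were negative, down to -1.11 ± 0.54 for miR-433. Without row 2 of day 2, in which MammU6 came late, 1 of 8 was called on the MammU6 scale.

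The media were then compared at the same day label, which is not a pair the authors deposited. Medium, coating, vessel, cell density and plate run go together in this comparison. Differentiation days are counted from the end of 24 h of attachment, so the same label need not mean the same time in culture. On day 2, 5 of 8 assays were higher in differentiation than in growth medium, beside 22.8% of 241 assays called higher. miR-431 differed most, by 1.79 ± 0.37 log2 units (limma, adjusted p = 0.000653), with 9.24 to 10.16 cycles in differentiation and 10.82, 11.44, 10.97 and 12.63 in growth medium, and no overlap. miR-127 was higher by 1.47 ± 0.39 (adjusted p = 0.00614), miR-136 by 1.32 ± 0.45, miR-433 by 1.17 ± 0.38 and miR-434-3p by 0.88 ± 0.32.
Relative to the row median miR-127 alone was called (0.79 ± 0.17, adjusted p = 0.000909), 1 of 8 beside 19.1%. There miR-431 was higher by 1.11 ± 0.48 with an adjusted p of 0.0585, and its rows in the media overlapped. The count on the MammU6 scale was 2 without row 1, 3 or 4 of the differentiation day or row 4 of the growth day, and 3 without row 3 of the growth day.

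On day 5, 0 of 8 were called between the media, beside 28.9% of 246 assays in either direction. All 8 changes were positive, from 0.38 ± 0.45 for miR-136 to 0.95 ± 0.52 for miR-337-3p, where the median of all assays was -0.07. Of the 8, 3 had an unadjusted p under 0.05, beside 106 of 246 assays. By the row median miR-337-3p was called higher (0.73 ± 0.30, limma, adjusted p = 0.0479), 1 of 8 beside 15.0%. With the mean of the other 4 controls as reference, which itself differed from MammU6 by -0.43 log2 units between the media, 7 of 8 were called higher. The share of all assays called with that reference is not given here. Without row 1 of the growth day 2 were called on the MammU6 scale.

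The change from day 2 to day 5 was also compared between the media. None of the 8 was called, beside 0.823% of 243 assays called higher and 6.17% called lower. None had an unadjusted p under 0.05, where 55 of 243 assays did. For miR-431 the change in differentiation was 0.85 lower than that in growth medium, with a 95% interval from -1.94 to 0.25. With the row median as reference 0 of 8 were called beside 6.58% higher and 11.9% lower. Again none had an unadjusted p under 0.05, where 77 of 243 assays did. The fall of miR-431 after day 2 is therefore not shown to differ between the media.

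Other miRNAs of the Dlk1-Dio3 region were read from lists named in the methods. Upstream, near Meg3, miR-493 was the one assay of its list tested against day 0. Against MammU6 it was called higher on day 2 (2.34 ± 0.60, limma, adjusted p = 0.00654) and not on day 5 (1.08), and against the row median on neither day (1.39, adjusted p = 0.101, and -0.16). On day 2 it was called higher in differentiation than in growth medium on both scales (2.68 ± 0.67 and 2.20 ± 0.71).
Downstream, in Rian, miR-370 was the one assay tested of its list. It was called higher on day 2 against MammU6 (1.32 ± 0.33) and not against the row median (0.37, limma, adjusted p = 0.589). miR-370 was called lower from day 2 to day 5 on both scales (-1.10 ± 0.33, adjusted p = 0.0316, and -1.38 ± 0.50, adjusted p = 0.0422). Between the media on day 2 it was called higher against MammU6 (1.95 ± 0.36) and not against the row median (1.27, adjusted p = 0.0515).

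Of the large cluster from miR-379 to miR-410 farther downstream, 11 of 24 assays were called higher on day 2 against day 0 on the MammU6 scale (28.4% of all assays), with a median of 1.15 beside 0.66 for all assays. By the row median 2 of 24 were called higher (11.9% of all assays). On day 5 against MammU6, 15 of 25 were called higher (42.3% of all assays) and 0 lower (9.76%), with a median of 1.38 beside 0.89. By the row median 3 of 25 were called higher (17.1%) and 3 lower (35.8%).
Those called that changed most on day 5 were miR-666-5p (6.04 ± 0.70 against MammU6 and 4.80 ± 0.92 against the row median), the rat assay for miR-758 (4.65 ± 1.18 and 3.41 ± 1.27) and miR-382 (2.96 ± 0.87 and 1.72 ± 0.66), all called on both scales. From day 2 to day 5, 2 of 27 assays of the cluster were called higher against MammU6 (9.31% of all assays) and 0 lower (4.86%), where 0 of the 8 Rtl1-antisense assays were called higher and 1 lower. By the row median 1 of 27 was called higher and 2 lower, and of the 8 assays 1 higher and 3 lower (15.4% and 19.8% of all assays). These lists share rows and control with the 8 assays, and the difference between the lists was not tested.

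The miRNAs whose 6 day means against the row median were most like the mean of the 8 were taken from 213 other assays with a Ct in every row. They were miR-410 (Pearson r = 0.956), miR-380-5p (0.860), miR-298 (0.821), miR-182 (0.761) and miR-183 (0.749). miR-410 and miR-380-5p belong to the cluster from miR-379 to miR-410. The points share rows and reference, and with 6 points the values describe likeness only. The mean of the 8 was highest on day 2 of differentiation, at -0.35, and lowest on day 5 in growth medium, at -1.18.

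Markers of other cells were checked over the same days. The summed log2 level of the neuronal list (miR-9, miR-124 and miR-128a) was between -11.43 and -10.23 on day 0 and between -8.20 and -7.04 on day 5 of differentiation. In growth medium it was between -11.96 and -10.92 on day 2 and between -10.61 and -9.17 on day 5, so that the days did not overlap in either medium. The sum was mostly miR-128a, at a mean Ct of 24.0 on day 0 and 20.9 on day 5 of differentiation. miR-9 came later, at 29.9 and 26.6. miR-9 and miR-128a were detected in all 24 rows, and miR-124 in 9 of 24. Of these, 2 were rows of day 0 at a mean Ct of 36.7 and 1 a row of day 5 of differentiation at 39.9. In growth medium they were 3 rows of day 2 at a mean Ct of 29.3 and 3 of day 5 at 36.0. The part of the neuronal list in the changes of the 8 assays was not tested. The blood list lay between -7.32 and -6.33 on day 0 and between -8.08 and -7.44 on day 5, with all 6 of its assays detected in at least 1 row of both days. The list for fibroblasts and smooth muscle (4 of 4 detected) lay between -5.72 and -4.36 on day 0 and between -5.51 and -4.33 on day 5. The endothelial list (2 of 2 detected) lay between -10.86 and -9.58 and then between -9.77 and -8.88. The epithelial list had 2 of 6 assays detected on day 0 and 5 on day 5, with sums at or below -15.77. Those added on day 5 were miR-141 (2 rows, mean Ct 37.9), miR-200a (1 row, 39.0) and miR-200b (1 row, 36.8). The hepatocyte marker, miR-122, had no Ct on day 0 and 3 of 4 rows on day 5, at a mean Ct of 39.2. These Ct values come late in the 40 cycles run.

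The authors' deposited table gives signed fold changes for the 7 day pairs, and all 56 of its values for the 8 assays equalled those recomputed here against MammU6 within a relative 0.001. For miR-431 the authors' deposited table holds 4.03 for day 2 against day 0, and for miR-136 it holds 5.28 for day 5 against day 0.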

How the data were processed

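Mature miRNAs were measured by TaqMan PCR in total RNA (RNA integrity number above 9, per the labels) over 40 cycles. The authors deposited raw Ct values of 381 assays, per the file headers and values. Software, thresholds and pooling are not given in the sources used here. Repeated day columns (8) were checked to be identical. A log2 level was the row's MammU6 Ct, or its median miRNA Ct, minus the Ct of the assay. The deposited matrix of signed fold changes (a ratio scale), per the values, matched recomputed folds for 1595 of 1596 entries.

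Changes were fitted with limma (lmFit and eBayes, version 3.58.1, in R 4.3.3), the 4 differentiation days in 1 fit, the 2 growth days in another, and all 6 for comparisons between media. Tested assays had a Ct in 3 or more of 4 wells of both days, and 1 day or both averaged below 35 cycles. Undetermined wells were left out, which touched none of the 8 assays. P-values were adjusted over all miRNA assays tested (Benjamini-Hochberg), and adjusted p under 0.05 was called. Arms were compared with exact permutation tests over rows. The fit was also run on simulated data with independent noise, which lacks the MammU6 deviation that all assays of a row share. Named besides the 8 assays were the up to 3 called assays with the largest change per list and comparison, and the 5 assays with the most similar day means. The lists were the proximal Dlk1-Dio3 miRNAs (miR-770, miR-673, miR-493, miR-540, miR-665, miR-3070 and miR-3071), those of Rian (miR-341, miR-370 and miR-1188), the miRNAs from miR-379 to miR-410, and cell type markers. Members and lists were chosen with earlier results of these data known. Alternatives covered the reference, the Ct limit, undetermined wells, row position as a block, the days fitted, the threshold and leaving out each row.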

Additional observations from a re-analysis of the deposited data

Results flagged for a closer look

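In 6 of the 96 sets of 4 rows tested (8 assays, 6 days, both scales) 1 row lay far from the other 3 by Dixon's criterion, and chance alone flags about 1 set in 20. On the MammU6 scale these were miR-127 on day 0 (row 1 at 7.83 cycles, the others 9.14 to 9.38), miR-337-5p on day 2 (row 1 at 12.68, the others 13.72 to 13.89) and miR-433 on day 5 of differentiation (row 2 at 13.78, the others 13.22 to 13.30). Relative to the row median they were miR-337-3p on day 0 (row 1 at -3.09, the others -4.17 to -4.00), miR-433 on day 1 (row 3 at -1.74, the others -2.18 to -2.13) and miR-136 on day 5 of differentiation (row 4 at -0.30, the others -1.32 to -1.16). Of the 3 on the MammU6 scale, 2 are in row 1 of differentiation, where MammU6 came late, and its part in them was not tested.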

How the results depend on the processing

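Counts of the 8 assays called are given in the order of the comparisons. Shares of all assays are given above for MammU6 and the row median only. Under every other setting, here and above, the counts describe the 8 assays alone. With the row median as reference, 3 were called on day 2 against day 0, 2 on day 5 against day 0, 1 on day 2 against day 1, 2 on day 5 against day 1, 4 on day 5 against day 2, 1 on day 2 between media and 1 on day 5 between media. On day 5 against day 0 the signs turned for miR-127 (-0.28), miR-431 (-0.27), miR-434-3p (-0.39) and miR-434-5p (-0.025), none of them called. With the mean of the other 4 controls, 7 were called on day 5 between media, and of the 25 calls on the MammU6 scale 17 were kept and 8 lost. At an adjusted p under 0.01 the counts were 3 (day 2 against day 0), 3 (day 5 against day 0), 0 (day 2 against day 1), 1 (day 5 against day 1), 0 (day 5 against day 2) and 2 (day 2 between media). Fitting only the days compared gave 4 on day 5 against day 0, 1 on day 2 against day 1 and 3 on day 2 between media. A mean Ct under 32 on both days gave 4 on day 2 against day 1.

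Rows carry no label that pairs them. With row position as a replicate block, the counts were 1 (day 1 against day 0), 8 (day 2 against day 1), 7 (day 5 against day 1), 3 (day 5 against day 2), 2 (growth medium) and 4 (day 5 between media), and within 1.5 times for the others. The day mean of MammU6, chosen after seeing the data, gave 6 on day 2 against day 1, 0 on day 5 against day 2 and 1 in growth medium. Leaving out 1 row at a time, the counts ranged from 3 to 8 (day 2 against day 0), 4 to 8 (day 5 against day 0), 1 to 3 (day 2 against day 1), 1 to 5 (day 5 against day 1), 0 to 1 (day 5 against day 2), 0 to 1 (growth medium), 2 to 5 (day 2 between media) and 0 to 2 (day 5 between media). The change of the miR-337 arms ranged from 0.74 to 1.00 cycles, and with 1 row left out the two-sided exact p, taken as double the one-sided p, cannot fall under 0.05. The causes of these shifts were not tested.

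Of the 25 changes called on the MammU6 scale, each under 9 other settings, 172 of 225 kept the call, 49 lost it and 4 turned sign. Under leaving out a row, 137 of 200 kept it, 63 lost it and none turned sign. The rises of miR-136 and miR-431 from day 0 to day 2 and of miR-136 and miR-337-3p from day 0 to day 5 kept the call under all 9 settings, as did the rise of miR-136 from day 1 to day 5 and the higher level of miR-127 in differentiation on day 2. The number of rows, 4 a day, limits the precision.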
